A study of Arabidopsis thaliana with 30 samples.

Results

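The tau, phi and lambda glutathione transferases (GSTs) of Arabidopsis thaliana were followed across 30 RNA sequencing libraries as 42 genes, taken by locus identifier from the 68575 identifiers of the deposited count table. They are 28 tau genes (GSTU1 to GSTU28), 13 phi genes (GSTF2 to GSTF14) and 1 lambda gene (GSTL1), and no measured value was used to choose them. Of the 42 genes, 41 passed the filter on low counts and were tested. GSTU15 did not, with at most 5 counts in any library.

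The libraries came from whole 14-day-old seedlings grown under 10 h of light per day, of the wild type Col-0 or of the mutant Δlinda, which is named after a long noncoding RNA induced by DNA damage; the sources used here do not describe the mutant allele further. In the first experiment seedlings were kept in liquid medium with 80 µg/ml Zeocin, which belongs to the bleomycin drugs and cuts DNA strands, or in mock medium (n = 4 for mock and 3 for Zeocin in Col-0, and n = 3 for mock and 4 for Zeocin in Δlinda). In the labels' protocol, mock names the medium that holds Zeocin, against the titles and design text; groups follow the titles, and the direction of every Zeocin fold rests on them. In the second experiment seedlings received 2 kJ of UV-C or stayed in normal light (n = 4 for each treatment and genotype). Harvest was at 3 h for mock, Zeocin and UV-C, and normal light carries no harvest time in the labels. One library, mock Col-0 replicate 1, is Col-0 by its title and Δlinda by its genotype tag, and was grouped by title. AT3G00800, taken as the LINDA locus from general knowledge of the study, had 506 to 779 counts per library after Zeocin in Col-0 and 135 to 444 in Δlinda, and 74 to 148 and 14 to 25 after UV-C, so that the genotypes did not overlap in the treated groups, while Δlinda still held counts. In mock (0 to 13 and 0 to 5 counts) and normal light (at most 1) the locus gives no check of the genotype labels. Every library titled Zeocin held more counts of AT3G00800 than every library titled mock, the direction that the titles give for a locus induced by DNA damage.

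GSTs join the tripeptide glutathione to electrophilic compounds, which are then carried into the vacuole. The tau and phi classes are plant-specific, arose largely by tandem duplication and are known for detoxifying herbicides and for responding to oxidative stress, salicylic acid and jasmonate precursors, whereas lambda GSTs act as thiol-dependent reductases. Several tau genes are known targets of TGA transcription factors, which bind the core TGACG and work with the GRAS protein SCL14.

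The 250 bases upstream of the annotated start are shown for GSTU25 and GSTU22, which had the largest folds of the members that rose after Zeocin in both genotypes, and for GSTU9, which had the largest fitted fold after UV-C in Col-0. They are RefSeq sequence of the TAIR10.1 assembly, read on the strand of the gene and matched by locus identifier, since the sources used here name no build for the counts. Capitals mark TGACG on either strand, so that CGTCA is the same core read on the other strand. The windows are chr1:5871774-5872023 on the plus strand for GSTU25, chr1:29474004-29474253 on the minus strand for GSTU22 and chr5:25089627-25089876 on the minus strand for GSTU9.
GSTU25: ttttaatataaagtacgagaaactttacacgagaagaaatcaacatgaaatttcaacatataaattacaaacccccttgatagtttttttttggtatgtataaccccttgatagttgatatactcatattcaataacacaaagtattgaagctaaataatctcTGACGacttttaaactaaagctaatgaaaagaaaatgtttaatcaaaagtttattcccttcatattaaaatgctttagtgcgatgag
GSTU22: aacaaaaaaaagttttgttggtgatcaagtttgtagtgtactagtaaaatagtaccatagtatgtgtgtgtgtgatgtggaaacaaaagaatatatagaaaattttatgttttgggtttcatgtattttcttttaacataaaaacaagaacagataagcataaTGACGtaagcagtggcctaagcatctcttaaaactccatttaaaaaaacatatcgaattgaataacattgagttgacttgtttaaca
GSTU9: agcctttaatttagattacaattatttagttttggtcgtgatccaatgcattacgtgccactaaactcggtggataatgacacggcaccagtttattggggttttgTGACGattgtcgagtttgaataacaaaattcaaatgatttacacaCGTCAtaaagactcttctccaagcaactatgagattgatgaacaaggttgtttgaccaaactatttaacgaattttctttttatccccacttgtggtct
The core starts 87 bases before the gene in both GSTU25 and GSTU22, and 144 and 99 bases before it in GSTU9. TGACG was found in the windows of 14 of the 42 members. It was in 18.6% of 27443 windows of the same length upstream of annotated protein-coding genes of the nuclear chromosomes. The core TTGAC, which overlaps TGACG in the string TTGACG, was found in 25 of 42 members and in 44.9% of all windows. A match of letters shows no binding and no match shows no lack of it.

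Restored totals were 12975718 to 15254482 counts in 29 libraries and 7966780 in normal light Δlinda replicate 1. Levels are given as CPM, counts scaled by library total and TMM factor, and a member is called up or down at an edgeR adjusted p under 0.05 over 21787 genes. The 5 shoot markers summed to 22600 to 94000 CPM. Of 6 root markers, the root hair gene EXPA7 was at 0 in all 16 normal light and UV-C libraries and at 3.49 to 10.6 CPM in the 14 mock and Zeocin libraries. The other root markers apart from SCR stood at 1.29 CPM or less in normal light, and PRP3 and CASP1 were at 0 in all UV-C libraries, although every library is labelled as whole seedling. The summed level of the 6 root markers was 72.5 to 116 CPM in mock and Zeocin, 30.3 to 38.0 in normal light and 11.7 to 22.0 after UV-C. In such bulk libraries fewer cells of a type and less RNA per cell cannot be told apart. Reads are shared by GSTF6 with GSTF7 (94.7% identical over the coding sequence), by GSTF3 with GSTF2 (94.5%), by GSTU7 with an antisense noncoding locus, and by GSTU2, GSTF2 and GSTF11 with opposite-strand neighbours (AT4G02510, which encodes TOC159, for GSTF2), and no strand setting is given, so these members are uncertain singly.

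In normal light a few members stood far above the rest. Per kilobase of coding sequence, GSTF9, GSTU20 and GSTU19 stood highest in normal light Col-0, with mean levels of 1390 ± 122, 752 ± 97.9 and 740 ± 12.9 CPM per kb (SD, n = 4). The SDs of GSTU20 and GSTU19 span their difference, whereas GSTF9 lay clear of both. GSTF9 (AT2G30860), a phi enzyme, had 947, 943, 781 and 925 CPM in the 4 normal light Col-0 libraries and 851, 907, 1110 and 755 in Δlinda. GSTU20 (AT1G78370), a tau enzyme known to interact with the jasmonate signalling protein FIN219, had 483, 566, 411 and 508 CPM in Col-0 and 545, 637, 741 and 564 in Δlinda. GSTU19 (AT1G78380), a tau enzyme known for conjugating herbicides, had 498, 489, 477 and 490 CPM in Col-0 and 425, 388, 527 and 465 in Δlinda. The genotype ranges overlapped for all 3 genes. In normal light Col-0 5 tested members, GSTU3, GSTU9, GSTU11, GSTU12 and GSTF13, had no count in any library.

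**Figure D1:**
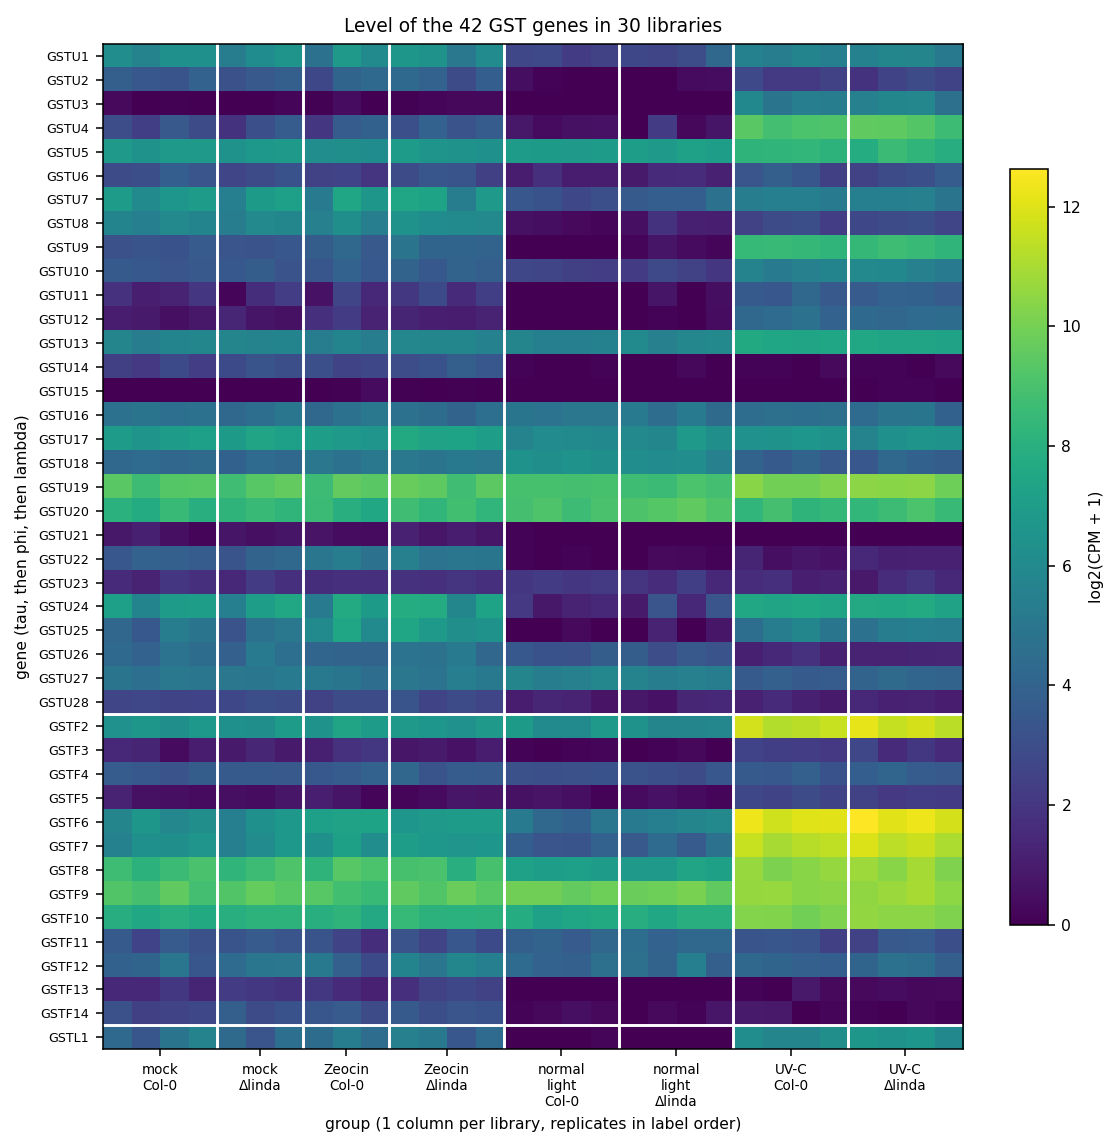
Level of each of the 42 genes, as log2(CPM + 1) by colour, in 30 libraries (columns, replicates in label order; white lines part the groups and the classes). GSTF9, GSTU19 and GSTU20 are bright throughout, GSTF2, GSTF6 and GSTF7 are bright after UV-C, and a block of tau genes is dark in normal light.

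Zeocin against mock asked which members change within 3 h of strand-breaking drug. In Col-0 5 of 41 members rose and none fell, where 3.88% of all 21787 genes rose and 1.02% fell. Single libraries moved this count, to 2 without Zeocin Col-0 replicate 2, 3 without Zeocin Col-0 replicate 3 and 7 without UV-C Δlinda replicate 1. In Δlinda 4 of 41 rose and none fell, where 2.28% of all genes rose and 0.395% fell. GSTU25, GSTU22 and GSTU18 rose in both genotypes, GSTU12 and GSTF6 passed the test in Col-0 and GSTU9 in Δlinda. The median member stood 0.16 higher on the log2 scale in Col-0 and 0.22 higher in Δlinda, against 0.00 over all genes in each.

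GSTU25 (AT1G17180), a tau enzyme known for conjugating the explosive TNT, had 17.2, 10.2, 39.7 and 28.2 CPM in mock Col-0 and 65.4, 169 and 62.6 after Zeocin. In Δlinda it had 8.31, 26.5 and 32.5 CPM in mock and 173, 110, 74.3 and 87.5 after Zeocin. Treated and mock libraries did not overlap in either genotype. The log2 fold was 2.05 ± 0.47 (SE; adjusted p = 0.0077), or 4.15-fold, in Col-0 and 2.31 ± 0.50 (adjusted p = 0.0072), or 4.96-fold, in Δlinda. Without Zeocin Col-0 replicate 2, which held the 169 CPM, the Col-0 fold was 1.42 (adjusted p = 0.14). Without mock Δlinda replicate 1 the Δlinda fold was 1.91 (adjusted p = 0.072), and with only the groups compared in the fit the adjusted p was 0.093 in Col-0 and 0.064 in Δlinda.

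GSTU22 (AT1G78340), the tau gene whose window is shown beside that of GSTU25, had 9.76, 14.9, 13.6 and 11.7 CPM in mock Col-0 and 29.8, 39.5 and 25.0 after Zeocin. In Δlinda it had 8.67, 15.2 and 18.1 CPM in mock and 44.4, 27.0, 30.6 and 29.1 after Zeocin. Every treated library lay above every mock library of its genotype. Its log2 fold was 1.33 ± 0.23 in Col-0 (adjusted p = 0.00023) and 1.23 ± 0.24 in Δlinda (adjusted p = 0.0013), and both calls held under all 41 other settings tried.

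GSTU18 (AT1G10360), a tau gene that overlaps its neighbour GSTU17 on the same strand, had 17.9, 20.2, 16.9 and 19.3 CPM in mock Col-0 and 31.5, 26.5 and 32.8 after Zeocin. In Δlinda it had 14.4, 20.2 and 17.7 CPM in mock and 32.9, 27.6, 33.1 and 31.4 after Zeocin. The spread was small beside the difference, and the groups did not overlap. The log2 fold was 0.70 ± 0.17 in Col-0 (adjusted p = 0.0088, and 0.059 without Zeocin Col-0 replicate 3) and 0.84 ± 0.17 in Δlinda (adjusted p = 0.0026). GSTU17, known as ERD9, had log2 folds of -0.05 ± 0.20 and 0.21 ± 0.20, neither past the threshold.

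GSTU12 (AT1G69920) was a low tau gene, with 1.05, 0.883, 0.410 and 0.769 CPM in mock Col-0 and 2.33, 3.51 and 1.39 after Zeocin. Its log2 fold in Col-0 was 1.62 ± 0.37 (adjusted p = 0.0065), with an adjusted p of 0.10 without Zeocin Col-0 replicate 2 and of 0.096 with only the groups compared. In Δlinda it had 1.55, 0.659 and 0.483 CPM in mock and 1.51, 1.12, 1.04 and 1.29 after Zeocin, with overlapping groups.

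GSTF6 (AT1G02930), a phi enzyme of camalexin synthesis, had 52.0, 101, 57.5 and 73.5 CPM in mock Col-0 and 137, 157 and 158 after Zeocin. Its log2 fold was 1.08 ± 0.27 (adjusted p = 0.012), but each of 4 libraries left out ended the call, with adjusted p of 0.059 and 0.051 without replicates 1 and 3 of mock Col-0, and 0.055 and 0.053 without replicates 2 and 3 of Zeocin Col-0. Summed with GSTF7, with which it shares reads, the log2 fold was 0.79 (adjusted p = 0.087). In Δlinda GSTF6 had 43.4, 80.9 and 105 CPM in mock and 100, 112, 124 and 123 after Zeocin, with a log2 fold of 0.59 ± 0.27 (adjusted p = 0.39).

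GSTU9 (AT5G62480), also a tau gene, had 9.21, 8.39 and 9.78 CPM in mock Δlinda and 28.0, 15.6, 16.0 and 15.1 after Zeocin, with no overlap. The log2 fold in Δlinda was 1.03 ± 0.21 (adjusted p = 0.0037). In Col-0 it had 7.66, 8.77, 8.08 and 11.5 CPM in mock and 12.3, 18.6 and 10.6 after Zeocin, where the groups overlapped and the log2 fold was 0.62 ± 0.21 (adjusted p = 0.099).

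**Figure D2:**
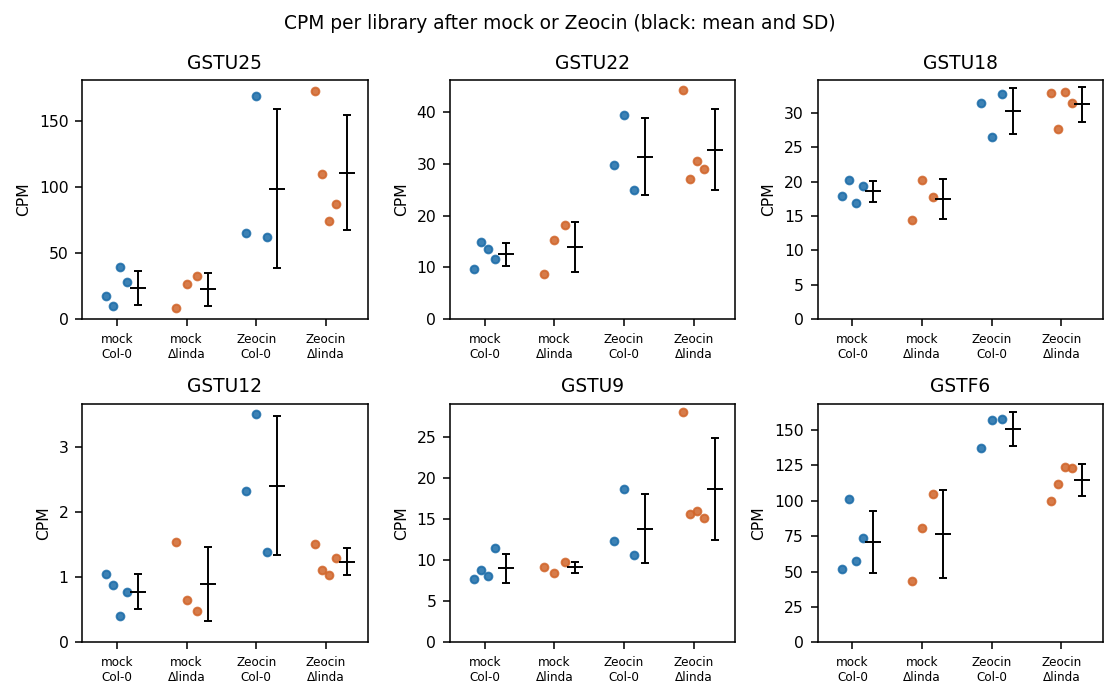
CPM of 6 members in mock and Zeocin libraries (blue Col-0, orange Δlinda; 1 point per library, black bars mean and SD). For GSTU25, GSTU22 and GSTU18 every Zeocin point lies above every mock point of the same genotype, and for GSTU9 in Col-0, GSTU12 in Δlinda and GSTF6 in Δlinda the groups overlap.

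The other 35 tested members did not pass the test in either genotype after Zeocin. The lowest log2 fold in Col-0 was that of GSTU6, at -1.13 ± 0.35 (8.83 CPM in mock and 4.04 after Zeocin, adjusted p = 0.06). GSTU5 had -0.49 ± 0.15 (adjusted p = 0.057) and was called lower with upper-quartile factors or with library totals alone, which made the split 5 higher and 1 lower, and DESeq2 called both GSTU5 and GSTU6 lower. Neighbours and close relatives of the members that rose, named after their values were seen, stayed under the threshold. GSTU24, which is 80.5% identical to GSTU25 over the coding sequence, had log2 folds of 0.16 ± 0.55 and 0.42 ± 0.55, and GSTU21, beside GSTU22, had -0.61 ± 0.59 and 0.66 ± 0.56. The differences between neighbouring genes were not tested.

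UV-C against normal light asked the same of 2 kJ of UV-C. Rises were called for 29 of 41 members in Col-0 and falls for 6, where 34.2% of all genes rose and 33.8% fell. In Δlinda 28 rose and 5 fell, where 34.4% of all genes rose and 33.3% fell. All 28 that rose in Δlinda also rose in Col-0, and all 5 that fell in Δlinda also fell in Col-0. The median member was 2.79 higher on the log2 scale in Col-0 and 2.32 higher in Δlinda, against 0.00 and 0.01 over all genes; with members that had no count in normal light set at their lower bounds the medians were 2.60 and 2.32. By class, 18 of 27 tau, 10 of 13 phi and the lambda gene rose in Col-0.

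**Figure D3:**
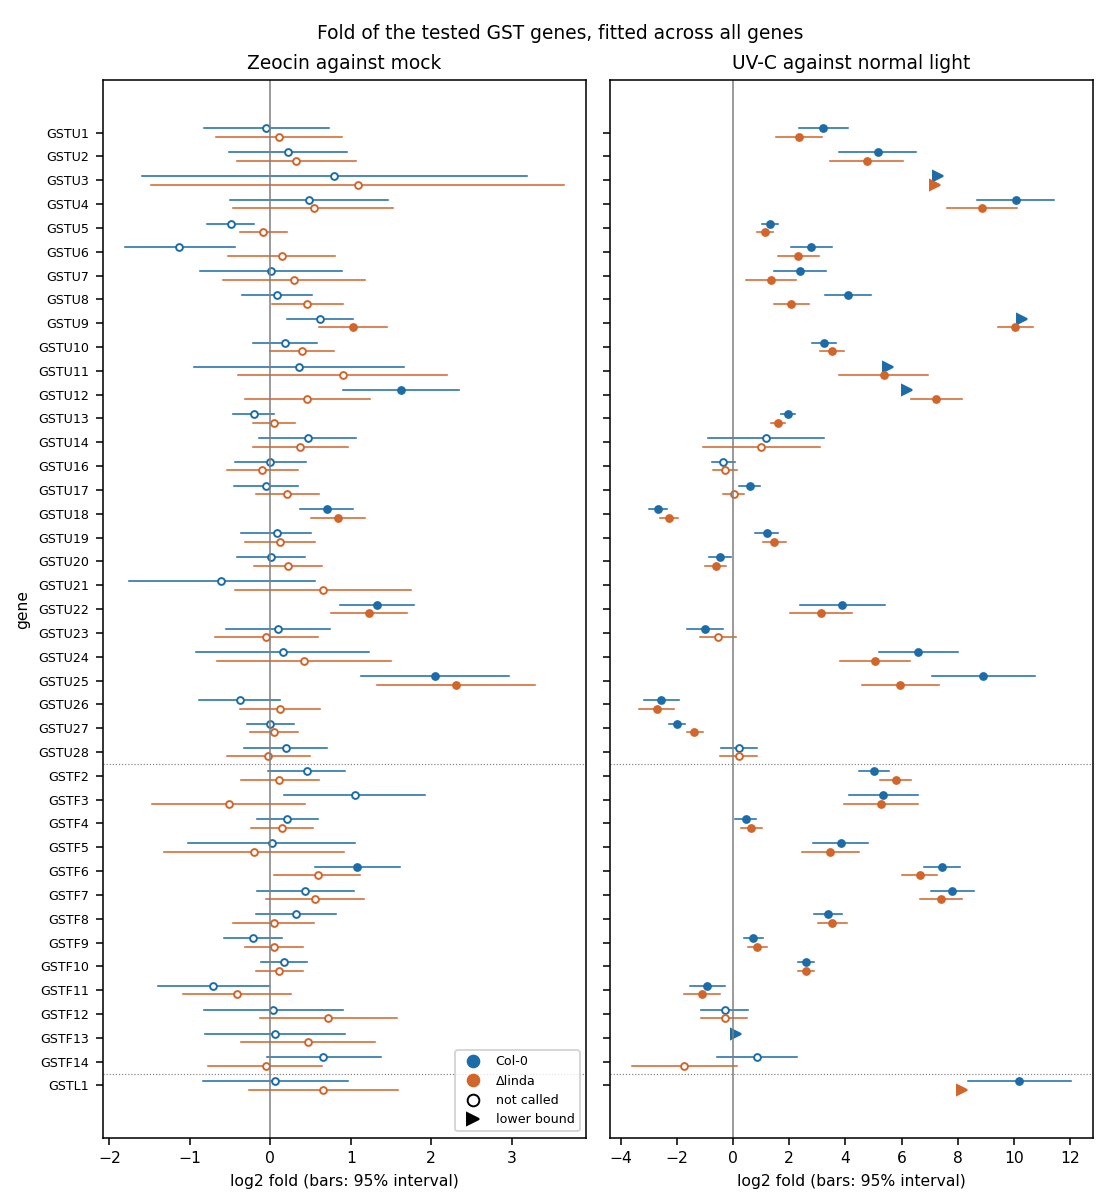
Log2 folds of the tested members after Zeocin (left) and after UV-C (right), fitted across all genes, with 95% intervals (blue Col-0, orange Δlinda; filled, adjusted p under 0.05; open, not called; triangle, lower bound where every normal light library was at 0; values with both groups at or under the floor are not drawn). After UV-C 29 Col-0 members lie right of 0 with a call and 6 left of it, and after Zeocin 5 lie right of 0 with a call.

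The largest fitted folds came from members with hardly any transcript in normal light. Members without a count there have lower bounds only, and in Col-0 those of GSTU3, GSTU11 and GSTU12 do not place them above GSTF7. GSTU9 had no count in the 4 normal light Col-0 libraries and 349, 364, 339 and 308 CPM after UV-C, at least 1260-fold higher against a floor of 3 counts per library (adjusted p = 1.6e-19). In Δlinda it had 0.152, 0.640, 0.298 and 0.161 CPM in normal light and 343, 422, 382 and 303 after UV-C (log2 10.04 ± 0.32, adjusted p = 4.5e-19). The UV-C ranges of the genotypes overlapped, and the controls stood near or at 0.

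GSTL1 (AT5G02780), the lambda member, had 0, 0, 0 and 0.171 CPM in normal light Col-0 and 71.6, 53.0, 52.1 and 74.7 after UV-C. With 2 counts in all in the control the ratio was 1400 (95% counting interval 388 to 11600; adjusted p = 2.7e-09). In Δlinda all 4 normal light libraries were at 0 and the UV-C libraries at 103, 89.0, 98.7 and 57.7 CPM, at least 282-fold higher (adjusted p = 1.2e-09). No UV-C library of either genotype came near a control.

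GSTU4 and GSTU3 sit in the tau cluster on chromosome 2 and share 81.9% of their coding sequence. GSTU4 had 0.741, 0.291, 0.506 and 0.512 CPM in normal light Col-0 and 678, 471, 526 and 565 after UV-C (log2 10.06 ± 0.70, adjusted p = 3.8e-12). In Δlinda GSTU4 had 0, 3.76, 0.199 and 0.643 CPM in normal light and 750, 719, 614 and 398 after UV-C (log2 8.87 ± 0.64, adjusted p = 7.7e-12). GSTU3 was at 0 in all 8 normal light libraries. After UV-C GSTU3 had 59.6, 27.9, 41.5 and 38.7 CPM in Col-0, at least 156-fold higher, and 45.1, 55.1, 55.7 and 24.5 in Δlinda, at least 146-fold higher (adjusted p = 7.3e-12 and 8.1e-12). For both genes every UV-C library lay far above every control.

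GSTU12 and GSTU11, neighbours on chromosome 1, had no count in any normal light Col-0 library. After UV-C GSTU12 had 18.4, 20.6, 25.9 and 14.8 CPM in Col-0, at least 74.0-fold higher (adjusted p = 4.1e-14), and GSTU11 had 10.8, 9.87, 18.3 and 10.4, at least 45.7-fold higher (adjusted p = 4.4e-07). In Δlinda GSTU12 went from 0, 0.0800, 0 and 0.321 to 18.8, 16.8, 20.7 and 20.9 CPM (log2 7.23 ± 0.47, adjusted p = 2.3e-13), and GSTU11 from 0, 0.640, 0 and 0.402 to 11.5, 14.6, 14.1 and 11.2 CPM. Every treated library lay above every control.

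Among the phi genes, GSTF6, GSTF7 and GSTF2 reached the highest levels after UV-C. GSTF6 had 34.5, 18.5, 14.4 and 29.8 CPM in normal light Col-0 and 5030, 3370, 4100 and 4270 after UV-C (log2 7.43 ± 0.33, adjusted p = 4.2e-17). GSTF7, its close relative, had 10.5, 20.5, 11.3 and 26.6 CPM in normal light Δlinda and 4020, 2640, 3130 and 2160 after UV-C (log2 7.42 ± 0.38, adjusted p = 2.7e-15), and in Col-0 12.7, 9.12, 8.77 and 14.8 CPM against 3040, 1990, 2450 and 2720 (log2 7.81 ± 0.39). As 1 unit, GSTF6 and GSTF7 went from a mean of 35.6 to 6740 CPM in Col-0 and from 65.7 to 7820 CPM in Δlinda, with SDs of 1130 and 1970 CPM after UV-C (n = 4 each). GSTF2 (AT4G02520), a phi protein known to bind camalexin and other indoles, had 119, 62.6, 61.8 and 111 CPM in normal light Col-0 and 3470, 2330, 2610 and 3050 after UV-C (log2 5.01 ± 0.27, adjusted p = 1.4e-15). GSTF2 and the other members without a place among the 6 largest folds were named after their values were seen.

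Summed over all 42 members, the level was 2790 ± 192 CPM in normal light Col-0 and 17200 ± 2070 CPM after UV-C, and 2970 ± 347 and 19700 ± 3670 CPM in Δlinda (SD, n = 4 each). GSTF2, GSTF6 and GSTF7 made up 4.45% of the sum in normal light Col-0 and 55.8% after UV-C, and 4.29% and 57.2% in Δlinda. The tau sum was 1400 ± 71.1 CPM in normal light Col-0 and 3440 ± 223 CPM after UV-C. Per kilobase of coding sequence, the order after UV-C in Col-0 was GSTF6 at 6690 ± 1090, GSTF2 at 4480 ± 784, GSTF7 at 4050 ± 709 and GSTF9 at 2300 ± 239 CPM per kb. The SDs of GSTF2 and GSTF7 span their difference, but in CPM GSTF2 stood above GSTF7 in each of the 4 libraries. Their coding lengths are 639 and 630 bases, and the difference was not tested. In mock and Zeocin libraries the members summed to 2480 to 4740 CPM.

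**Figure D4:**
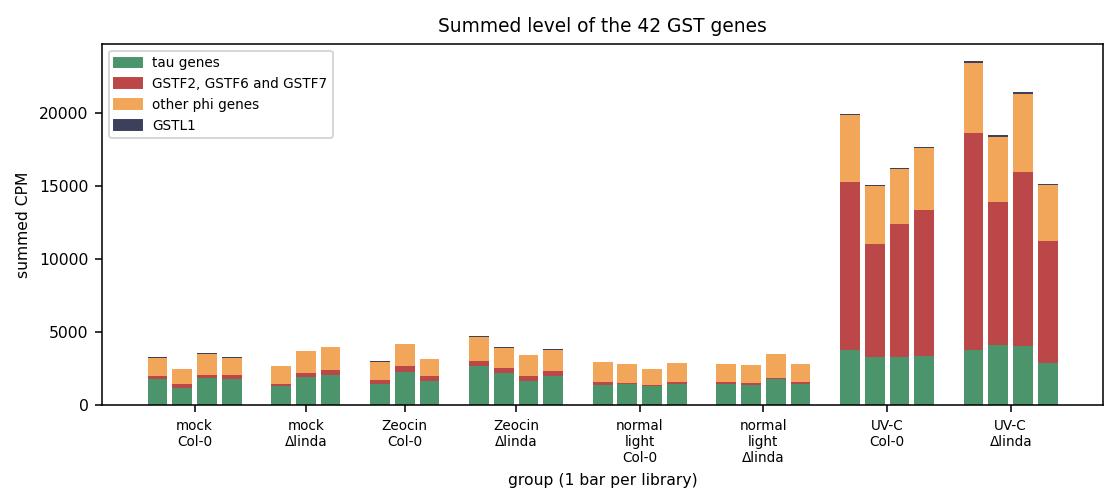
Summed CPM of the 42 genes in each of 30 libraries (bars), split into 28 tau genes, GSTF2 with GSTF6 and GSTF7, the other 10 phi genes, and GSTL1. The 8 UV-C bars stand at 15100 to 23600 CPM and the other 22 bars at 2480 to 4740 CPM.

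The other members that rose after UV-C in Col-0 ranged from GSTF4, at log2 0.45 ± 0.19, to GSTU25. GSTU25 had 3 counts in all in normal light Col-0 and a mean of 36.7 CPM after UV-C, a ratio of 549 (95% counting interval 188 to 2670). GSTU24 rose from a mean of 1.79 to 175 CPM (log2 6.60 ± 0.72), GSTF8, a phi gene induced by salicylic acid, from 136 to 1420 CPM (3.38 ± 0.26), and GSTF10 from 190 to 1150 CPM (2.60 ± 0.15). Of the 3 members highest per coding kilobase in normal light Col-0, GSTU19 rose from a mean of 488 to 1120 CPM (2.30-fold). GSTF9 rose by 0.73 ± 0.17 on the log2 scale, and GSTU20 did not rise. GSTF13 was called in both genotypes at 13 and 12 counts in all after UV-C against 0 in normal light, which allows at least a 1.07-fold rise in Col-0, and in Δlinda both groups were at or under the floor. The call of GSTF4 in Col-0 ended in 9 of the other settings.

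Members that fell were fewer, and all tau apart from GSTF11. GSTU18 had 90.3, 78.5, 87.1 and 77.2 CPM in normal light Col-0 and 15.5, 10.9, 15.4 and 10.4 after UV-C (log2 -2.68 ± 0.17, adjusted p = 1.9e-14). In Δlinda GSTU18 had 73.3, 67.4, 72.5 and 44.8 CPM in normal light and 9.62, 17.4, 14.3 and 12.4 after UV-C (-2.26 ± 0.17, adjusted p = 6.3e-13). No UV-C library of GSTU18 reached a control. GSTU26, a neighbour of GSTU25, fell from 9.64 to 1.64 CPM in Col-0 (-2.55 ± 0.31) and from 9.59 to 1.42 in Δlinda (-2.72 ± 0.32). GSTU27 fell by 1.99 ± 0.15 in Col-0 and by 1.37 ± 0.15 in Δlinda on the log2 scale. GSTF11, a phi enzyme of glucosinolate synthesis, fell by 0.91 ± 0.32 (its call ended without UV-C Col-0 replicate 4) and by 1.10 ± 0.32. GSTU20 was called down at -0.46 ± 0.20 in Col-0 with overlapping groups, a call that ended in 12 of the other settings, and at -0.61 ± 0.20 in Δlinda. GSTU23 fell in Col-0 (-0.99 ± 0.33) and GSTU17 rose there (0.59 ± 0.19), neither with a call in Δlinda.

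**Figure D5:**
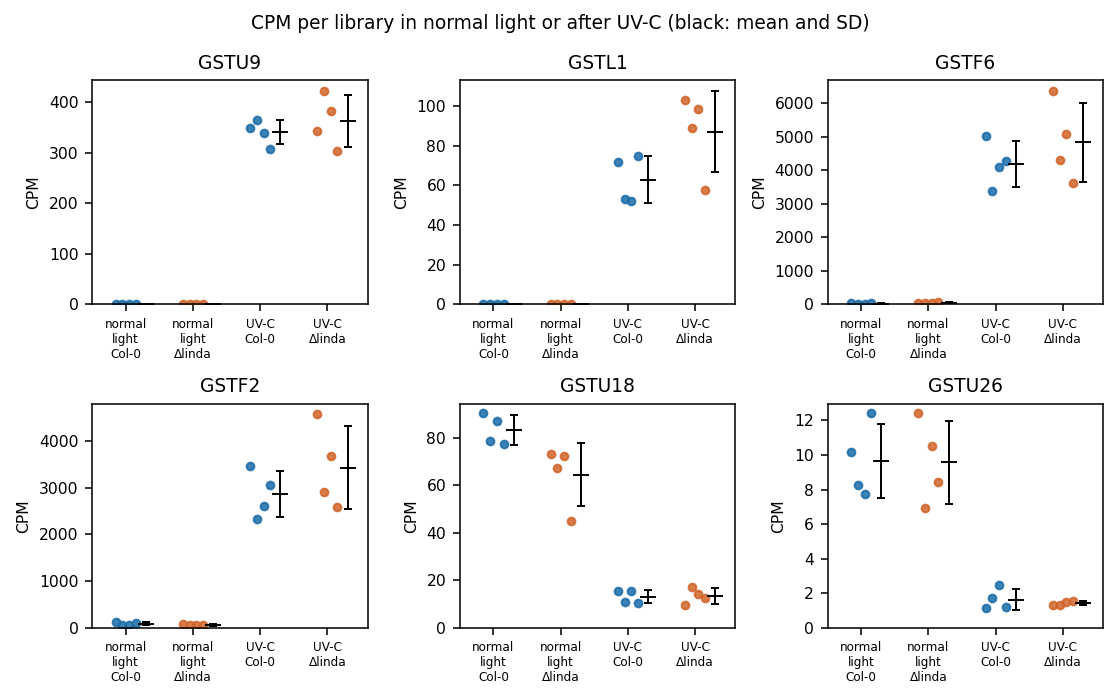
CPM of 6 members in normal light and UV-C libraries (blue Col-0, orange Δlinda; 1 point per library, black bars mean and SD). GSTU9, GSTL1, GSTF6 and GSTF2 stand near 0 or low in normal light and high in all 8 UV-C libraries, and GSTU18 and GSTU26 do the reverse.

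The 6 tested members without a call after UV-C in Col-0 were GSTU14, GSTU16, GSTU21, GSTU28, GSTF12 and GSTF14. GSTU16 had log2 folds of -0.34 ± 0.21 in Col-0 and -0.28 ± 0.21 in Δlinda. GSTF12, the phi protein needed to carry anthocyanins to the vacuole and known as TT19, had -0.30 ± 0.42 in each genotype. Of the 6 root markers 2 passed the test downward in Col-0 and 3 in Δlinda, and all 5 shoot markers fell in both genotypes, where 33.8% and 33.3% of all genes fell. UV-C libraries also held 6.14% to 12.8% of their counts in a pair of abundant RNA genes, against 0.698% to 1.64% in normal light. The part of either in the members' changes was not tested.

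Members of a tandem cluster moved together in some clusters and apart in others. By the TAIR10.1 annotation, 29 members lie in 9 clusters of neighbours less than 20 kb apart. All 7 genes of the cluster GSTU1 to GSTU7 (chr2:12617936-12632538) rose after UV-C in both genotypes, as did all 4 of the phi cluster GSTF4 to GSTF7 (chr1:658578-666471) and GSTF9 with GSTF10 (chr2:13138882-13142676). In the cluster GSTU24 to GSTU26 (chr1:5869543-5876620) the first pair rose and GSTU26 fell. In the cluster GSTU19 to GSTU23 (chr1:29467412-29488007) GSTU19 and GSTU22 rose in both genotypes and GSTU20 fell. GSTU13 rose by 1.96 ± 0.13 in Col-0, while its neighbour GSTU14, 87.7% identical to it over the coding sequence, had 0 to 0.264 CPM across all 16 normal light and UV-C libraries. Of the 29 members that rose after UV-C in Col-0 13 have TGACG upstream, as have 1 of the 6 that fell, GSTU27, and 0 of the 6 not called. It is upstream of 2 of the 5 that rose after Zeocin in Col-0 and 3 of the 4 in Δlinda. Of the members not called after Zeocin, 12 of 36 have it in Col-0 and 11 of 37 in Δlinda. GSTU18, which rose in both genotypes, lacks it, as do GSTU12 and GSTF6, which were called in Col-0. Of all windows 18.6% hold it, and the share among all genes that rose was not computed.

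The 2 responses differed for most members. The UV-C response minus the Zeocin response was higher in 28 of 41 members and lower in 4 in Col-0, where 26.7% of all genes were higher and 28% lower. In Δlinda 26 were higher and 4 lower, where 26.5% and 26.9% of all genes were. GSTU18 moved in opposite directions: it rose after Zeocin and fell after UV-C, and the difference was -3.38 ± 0.24 in Col-0 (adjusted p = 1.4e-12) and -3.10 ± 0.24 in Δlinda (adjusted p = 9.8e-12). GSTU26 and GSTU27 were also lower after UV-C relative to Zeocin in both genotypes. GSTU22 had a difference of 2.57 ± 0.87 in Col-0 (adjusted p = 0.014), yet its level after UV-C was 0.448 to 1.76 CPM over both genotypes, under the 8.67 to 18.1 CPM of mock. Dose, medium and control all differ between the experiments and cannot be told apart from the agent.

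Mock against normal light compared the 2 controls. In Col-0 25 of 41 members were higher in mock and 4 lower, where 28.1% of all genes were higher and 26.6% lower. In Δlinda 25 were higher and 5 lower, where 24.3% and 21.9% of all genes were. The median member stood 2.19 and 2.06 higher on the log2 scale against 0.02 and 0.03 over all genes, or 1.55 and 1.66 with members at 0 set at their bounds. Scaled by library totals alone, which moved the median of all genes by 0.55 and 0.48, the counts were 31 higher and 1 lower in Col-0 and 30 higher and 1 lower in Δlinda. The shares of all genes called under this scaling are not given here, so these counts cannot be set against them.

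GSTF13, a phi gene, had no count in all 8 normal light libraries and 1.73, 1.71, 3.10 and 1.48 CPM in mock Col-0 and 3.53, 3.11 and 2.66 in mock Δlinda, at least 7.44-fold and 10.0-fold higher. GSTU21 was at 0 in normal light Δlinda and at 0.658, 0.419 and 0.664 CPM in mock Δlinda, at least 1.88-fold higher. GSTU9, at 0 in normal light Col-0 and at 7.66 to 11.5 CPM in mock Col-0, was at least 33.4-fold higher, GSTU11 at least 7.27-fold and GSTU12 at least 2.89-fold. GSTL1 was at 8.92 to 49.9 CPM in the mock libraries, at least 55.8-fold higher than normal light in Δlinda. GSTU3 held 5 counts in all in mock Col-0 and 3 in mock Δlinda, so that both groups were at or under the floor, where UV-C libraries held it at 24.5 to 59.6 CPM.

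Some members, named after their values were seen, were low in both normal light and UV-C. GSTU14 had 3.24 to 13.2 CPM in the 14 mock and Zeocin libraries and at most 0.264 in the other 16. GSTF14 had 4.30 to 13.1 and at most 0.852 CPM, GSTU8 38.3 to 88.8 and at most 7.29, and GSTU22 8.67 to 44.4 and at most 1.76. All 6 root markers were higher in mock than in normal light in both genotypes, where 28.1% of all genes were in Col-0 and 24.3% in Δlinda. All 5 shoot markers were lower in both, where 26.6% and 21.9% of all genes were. Root content, liquid medium and harvest time cannot be told apart in this comparison. After UV-C in Col-0 GSTU8 rose from a mean of 0.319 to 5.53 CPM and GSTU22 from 0.0442 to 0.8 CPM. GSTU14 and GSTF14 were not called there. After Zeocin GSTU22 rose in both genotypes. Of the root markers none was called higher after UV-C in Col-0, and none was called after Zeocin. The part of root content in these levels was not tested.

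Members that were lower in mock included GSTU18 (log2 -2.16 ± 0.16 in Col-0 and -1.89 ± 0.18 in Δlinda) and GSTU20 (-0.85 ± 0.20 and -0.93 ± 0.22). With library totals alone the call of GSTU20 ended in both genotypes.

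Δlinda against Col-0 asked whether the mutant differs under each condition. No member was called by edgeR in mock, after Zeocin, in normal light or after UV-C, where 0.00918%, 0.142%, 0.138% and 0.0184% of all genes were called. At an unadjusted p under 0.05 there were 2, 13, 9 and 2 members, and DESeq2 called 0, 0, 3 and 0. The shares of all genes under these 2 criteria are not given here, so the counts cannot be set against them. The 3 that DESeq2 called in normal light were GSTU8, GSTU9 and GSTF6, all higher in Δlinda. GSTF6 had 37.0, 43.4, 52.3 and 61.1 CPM in normal light Δlinda against 34.5, 18.5, 14.4 and 29.8 in Col-0, with no overlap (edgeR log2 1.00 ± 0.26, adjusted p = 0.12). Without Zeocin Col-0 replicate 1, 4 members were called after Zeocin: GSTF3 lower in Δlinda, and GSTF9, GSTF12 and GSTU20 higher. Without normal light Δlinda replicate 1, GSTU8 was called in normal light. The shares of all genes called with these libraries left out are not given here.

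No member was called in the genotype by Zeocin interaction or in the genotype by UV-C interaction by edgeR, where 0.0321% and 0.0184% of all genes were, and DESeq2 called none. At an unadjusted p under 0.05 there were 3 and 9 members, and the shares of all genes at that threshold are not given here. GSTU9 had the smallest unadjusted p of the members in the UV-C interaction, with a log2 difference of -5.15 ± 1.37 (adjusted p = 0.34), which rests on 0 counts in normal light Col-0. For GSTU22 after Zeocin the interaction was -0.10 ± 0.33 (95% interval -0.74 to 0.55), and for GSTU25 it was 0.26 ± 0.66 (-1.04 to 1.56).

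Genes that supply or use glutathione moved with UV-C in part. Of 10 genes of glutathione synthesis, reduction, turnover and vacuolar export, 9 were tested, and 7 rose and none fell after UV-C in Col-0, where 34.2% of all genes rose and 33.8% fell, with a median of 1.62 on the log2 scale against 0.00 over all genes. ABCC3, a vacuolar transporter of glutathione conjugates, rose from 24.3 ± 2.73 to 1750 ± 58.6 CPM (SD, n = 4; log2 6.17 ± 0.38). GSH2, glutathione synthetase, rose from 136 ± 9.65 to 511 ± 57.1 CPM, and GR1, the cytosolic glutathione reductase, from 92.6 ± 4.92 to 329 ± 11.3 CPM. GGT1, an apoplastic transpeptidase that breaks glutathione down, rose by 1.88 ± 0.16 on the log2 scale. In Δlinda 6 rose and 1 fell. After Zeocin in Col-0 2 of 9 rose, against 3.88% of all genes, ABCC3 at 1.21 ± 0.32 (adjusted p = 0.026) and GGT1 at 0.73 ± 0.17 (adjusted p = 0.0092), and in Δlinda none was called.

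Of 12 genes of other GST classes, 3 rose and 5 fell after UV-C in Col-0 (median -0.36), shares near the 34.2% and 33.8% of all genes, and none was called after Zeocin in either genotype. GSTZ1, a zeta enzyme of tyrosine breakdown, rose by 2.15 ± 0.18, the microsomal gene AT1G65820 by 1.90 ± 0.15 and the dehydroascorbate reductase DHAR2 by 0.97 ± 0.25, and the theta gene GSTT2 fell by 0.80 ± 0.15. The other lambda genes, GSTL2 and GSTL3, named after their values were seen, fell by 0.74 ± 0.11 and 0.48 ± 0.11 in Col-0. In Δlinda GSTL2 fell by 0.70 ± 0.11, and GSTL3 was not called (-0.21 ± 0.11, adjusted p = 0.1). In Δlinda 4 of the 12 rose and 4 fell. Beside the same shares of all genes, of 8 glutathione peroxidase-like genes 4 rose and 1 fell in each genotype (median 0.60 in Col-0), with GPX4 at 2.67 ± 0.58, GPX7 at 2.30 ± 0.19 and GPX1 at -1.22 ± 0.11. Of 7 genes of sulphate assimilation and cysteine supply 5 rose and 2 fell in Col-0 (median 0.84) and 4 rose and 2 fell in Δlinda, with the ATP sulfurylase APS1 at 2.24 ± 0.13 and the serine acetyltransferase SERAT2;1 at 1.89 ± 0.28.

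Of the regulators TGA2, TGA5, TGA6 and SCL14, 3 of 4 rose after UV-C in Col-0 (median 0.59), where 34.2% of all genes rose, SCL14 by 1.05 ± 0.13, TGA5 by 0.73 ± 0.14 and TGA6 by 0.46 ± 0.17, and none was called after Zeocin. In Δlinda the same 3 rose and TGA2 fell by 0.27 ± 0.12. Of 7 detoxification genes known as targets of SCL14 or TGA factors, 5 could be tested and 3 rose in each genotype (median 2.75 in Col-0), where 34.2% and 34.4% of all genes rose. The cytochrome P450 CYP81D8 rose from 2.85 ± 2.31 to 691 ± 40.7 CPM (log2 7.92 ± 0.77), the NAC factor ANAC032 by 3.59 ± 0.46 and OPR1 by 2.75 ± 0.42. All 5 were higher in mock than in normal light in both genotypes, where 28.1% and 24.3% of all genes were. None was called after Zeocin.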

How the data were processed

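The submitters' processing notes name Trimmomatic 0.38.0, FastQC 0.72 and Salmon 0.14.1.2, whereas the transcript set and build are not given in the sources used here. The authors deposited estimated counts per gene, in which the decimal mark of values that were not whole is missing. Here it was put back, per gene and library, at the placement of 0 to 3 decimals with a posterior of 0.95 or more under levels shared within groups, or by a partner locus whose fractions add to whole numbers within 0.0021. Genes left unclear (2068 in all, and 3.96% of the genes whose mean reached 10 counts) were dropped, and all 42 members were kept, 174 of their 1150 entries above 0 with decimals. The placement can draw replicates together. Estimates were rounded to whole numbers.

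All 30 libraries entered 1 edgeR 4.0.16 quasi-likelihood fit (R 4.3.3) with TMM factors, filterByExpr (count 10, total 15) and Benjamini-Hochberg adjustment over 21787 genes in each of 14 comparisons. DESeq2 1.42.0 was an alternative. The method was tested on simulated data for Zeocin against mock in Col-0 with 21787 genes, of which 200 were changed. Of these, 76% were recovered at an absolute log2 of 1 and 95% at 2, with 9 unchanged genes called. The changed genes were drawn above a minimum mean count, and levels were otherwise equal in all groups. The rates therefore do not cover members of low counts or without counts in a group. Standard errors are the absolute log2 fold over the square root of F. Labels do not say that replicates were separate cultures, so p-values measure only the spread between these samples. The 95% intervals of log2 folds were built from these standard errors and have the same limit. Counting intervals and floors cover counting error only.

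Replicate numbers were checked as pairs by the correlation of deviations from group means. Only between Δlinda and Col-0 in mock was every pair over 0.1 (0.281, 0.137 and 0.193). Members given in full were, per treatment comparison, the 6 called members of largest fold without overlap, the 3 highest per coding kilobase in normal light Col-0, and those at 0 throughout a group. Members and lists were chosen with earlier results of these data known. Names come from the TAIR10.1 gene table, which held 37379 of the 68575 identifiers.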

Additional observations from a re-analysis of the deposited data

Results flagged for a closer look

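In 90 groups of 4 libraries, 9 values stood apart from their group by Dixon's criterion, which chance meets in about 1 group of 20. These groups came from the 11 members picked for the largest folds without overlap and from 5 sums. GSTU9 was 28.0 CPM in Zeocin Δlinda replicate 1 against 15.1 to 16.0 in the others. GSTU11 was 18.3 CPM in UV-C Col-0 replicate 3 against 9.87 to 10.8. GSTU22 was 1.76 CPM in UV-C Δlinda replicate 1 against 1.16 to 1.22. GSTU25 was 0.253 CPM in normal light Col-0 replicate 3 and GSTL1 was 0.171 CPM in normal light Col-0 replicate 4, each against 0 in the other 3 libraries. Normal light Δlinda replicate 3 was high in the summed level of all 42 members, at 3490 CPM against 2780 to 2810, of tau genes, at 1780 CPM against 1420 to 1470, and of phi genes, at 1710 CPM against 1330 to 1390. The tau sum of mock Col-0 replicate 2 was low, at 1210 CPM against 1790 to 1860.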

How the results depend on the processing

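Of 574 recomputed counts of called members 565 stayed within 1.5 times the reported count. They include comparisons without any call in the main fit and fits that left out a library outside the comparison, where little could change. Of 849 recomputed folds of the members picked for the largest folds without overlap, none changed direction and 12 lost the call. Members given in full for other reasons, such as GSTU20, are not among them. Shares of all genes called under the other settings are not given here. With decimals placed without groups, where 28 members could be tested, the calls were 22 and 21 after UV-C in Col-0 and Δlinda, 20 for the UV-C minus the Zeocin response in Col-0 and 19 for mock against normal light in Δlinda. DESeq2 called 3 members for genotype in normal light. Leaving out each library in turn gave 2 to 7 calls after Zeocin in Col-0 (2 without Zeocin Col-0 replicate 2, 3 without Zeocin Col-0 replicate 3), 0 to 4 for genotype after Zeocin and 0 to 1 for genotype in normal light. With the replicate block the counts were 5 and 4 after Zeocin, 34 and 33 after UV-C, and 0 for genotype and interactions, so that no count moved by over 1.5 times. Upper-quartile factors moved the median of all genes after UV-C by -0.11 in Col-0 and -0.12 in Δlinda. Summing loci that share reads was chosen after the data were seen. With 3 or 4 libraries a group, folds of members under about 1 CPM rest on few counts.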

Other observations

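In the mock and Zeocin experiment single libraries held the lowest level of their group for many members at once, as was seen after the values were examined. Of 41 tested members, 21 were lowest in mock Col-0 replicate 2, 28 in mock Δlinda replicate 1, 17 in Zeocin Col-0 replicate 1 and 15 in Zeocin Δlinda replicate 3, while 21 were lowest in Zeocin Col-0 replicate 3. With 3 or 4 libraries a group, some library must be lowest for each member. The same share over all genes was not computed. The 6 members GSTU1, GSTU7, GSTU11, GSTU19, GSTU24 and GSTF8, picked for being lowest in all of the first 4 libraries, include GSTU24, with 50.7, 43.2, 37.2 and 54.4 CPM in them and 116 to 222 CPM in the other 10. GSTU19 had 401, 437, 408 and 436 CPM in them and 638 to 844 CPM in the others. The low values of these 6 members in those 4 libraries follow from how members and libraries were picked. Whether the libraries differ otherwise was not tested.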
